A study of Mus musculus with 4 samples.

Results

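Cells detect foreign or misplaced nucleic acid with dedicated sensor proteins, and answer by making interferons. Sensors of double-stranded RNA in the cytoplasm signal through the adaptor MAVS, sensors of cytoplasmic DNA signal through STING, and Toll-like receptors watch the endosome. The cytoplasmic routes lead to the kinase TBK1, all of them activate interferon regulatory factors, and secreted interferon then acts through its receptors, STAT2 and IRF9 on a large set of antiviral genes. Retrotransposons make RNA and DNA copies that such sensors can bind, and the question asked here was whether germ cells that lose retrotransposon silencing also show this response.

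The set held 38 genes, chosen by name for their function, with no measured value in the rule: 6 RNA sensors with their adaptor, 4 sensors of DNA or Z-form nucleic acid with their adaptor, 6 kinase and transcription factor genes, 19 interferon-induced effectors and 3 genes of nucleic acid editing and degradation. All 38 were among the 23980 genes of the deposited table. Poly(A)+ RNA had been sequenced as single 50-bp reads from spermatocytes at the leptotene and zygotene stages (L/Z), the onset of meiosis, which were sorted by flow cytometry from mice aged 3 to 4 weeks. All animals were F1 hybrids of C57BL6/J with MSM/Ms. There was 1 library for each of 4 genotypes: Pld6 KO, Pld6 WT, Dnmt3L KO and a Dnmt3L heterozygote (Dnmt3L Het), which still carries 1 mutant allele. Pld6 is a mitochondrial protein needed to make piRNAs, the small RNAs that guide silencing of retrotransposons, and Dnmt3L is a cofactor of de novo DNA methylation. The Pld6 WT and Dnmt3L Het served as controls for their own lines and together as the control group, so a difference between them holds line and genotype as well as chance. No mutant value has a replicate.

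The libraries held between 30439943 (Pld6 KO) and 63875934 (Dnmt3L Het) fragments in genes. Pld6 was at 0.334 FPKM in the Pld6 KO library against 8.55 to 19.5 FPKM in the others, and Dnmt3l had 0 fragments in the Dnmt3L KO library against 20 to 101 in the others. The KO libraries thus matched their labels, while the level of Dnmt3l does not check the heterozygote, whose 1.27 FPKM lay above the 0.98 FPKM of Pld6 WT. FPKM is the number of fragments scaled to gene length and library depth. All 15 markers of L/Z spermatocytes were detected in every library. Their medians were 95.2 FPKM in Dnmt3L Het, 70.2 FPKM in its KO, 128 FPKM in Pld6 KO and 187 FPKM in Pld6 WT. In the Dnmt3L KO library 13 of them were below both controls by any size (28.6% of all genes). Markers of other cells differed as well. The median of 12 Sertoli cell markers was 100 FPKM in Dnmt3L Het and 129 FPKM in Dnmt3L KO, against 15.3 FPKM in Pld6 KO and 5.68 FPKM in Pld6 WT. The 10 spermatid markers had medians of 72.2 FPKM in Dnmt3L Het and 14.5 FPKM in Pld6 WT, but 0.590 FPKM in Dnmt3L KO and 0.852 FPKM in the Pld6 KO library. The authors reported that testes of both mutants held germ cells only up to the zygotene stage, as cells died late in that stage. From bulk RNA of this kind alone, fewer cells of a type and less RNA per cell cannot be told apart.

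Promoter sequences were searched for the letters of the element through which interferon acts. The complex that holds STAT2 and IRF9 binds the interferon-stimulated response element (ISRE), searched here as GAAA, any 2 bases and GAAA again, on either strand. RefSeq windows of 300 bases (250 before and 50 after the start site, GRCm38.p6) were matched for 30 of the 38 members, and 12 of these (40%) held the letters, against 3.99% of all 27025 genes with a window. The 12 were Ifih1, Ddx58, Stat2, Isg15, Ifit1, Ifit3, Ifitm2, Ifitm3, Oas3, Rsad2, Bst2 and Eif2ak2. The gamma-activated sequence (GAS, searched as TTC, any 3 bases and GAA) was found in 8 of the 30 (26.7%), against 9.55% of all genes. A match in letters is a description and shows no binding. Dhx58, Tlr7, Tmem173, Zbp1, Oas2, Mx1, Mx2 and Usp18 had no matched window. The stretches below, from 150 bases before to 30 after the start site and written 5′ to 3′ along the gene, are of members whose values are given further on, and capitals mark the ISRE letters on either strand.
Isg15, chr4:156200789-156200968, minus strand: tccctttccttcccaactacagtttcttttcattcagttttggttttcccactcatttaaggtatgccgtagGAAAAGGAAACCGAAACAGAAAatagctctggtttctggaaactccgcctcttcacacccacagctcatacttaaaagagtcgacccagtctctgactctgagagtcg
Ifit1, chr19:34640739-34640918, plus strand: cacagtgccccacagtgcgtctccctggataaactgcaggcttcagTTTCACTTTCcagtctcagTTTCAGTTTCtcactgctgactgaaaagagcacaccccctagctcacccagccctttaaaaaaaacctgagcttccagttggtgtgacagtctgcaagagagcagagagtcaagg
Rsad2, chr12:26456423-26456602, minus strand: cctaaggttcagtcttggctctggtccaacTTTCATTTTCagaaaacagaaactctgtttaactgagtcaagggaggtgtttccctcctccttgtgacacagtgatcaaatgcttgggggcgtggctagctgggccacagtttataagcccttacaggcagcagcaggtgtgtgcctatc
Oas3, chr5:120777630-120777809, minus strand: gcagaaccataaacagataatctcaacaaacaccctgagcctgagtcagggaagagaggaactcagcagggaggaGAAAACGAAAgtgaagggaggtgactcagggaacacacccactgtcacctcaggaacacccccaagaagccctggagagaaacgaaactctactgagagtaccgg
Ifitm3, chr7:141010715-141010894, minus strand: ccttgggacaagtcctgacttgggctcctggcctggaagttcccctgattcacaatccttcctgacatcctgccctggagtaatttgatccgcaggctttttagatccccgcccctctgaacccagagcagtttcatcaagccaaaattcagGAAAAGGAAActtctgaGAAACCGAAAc
Eif2ak2, chr17:78882543-78882722, minus strand: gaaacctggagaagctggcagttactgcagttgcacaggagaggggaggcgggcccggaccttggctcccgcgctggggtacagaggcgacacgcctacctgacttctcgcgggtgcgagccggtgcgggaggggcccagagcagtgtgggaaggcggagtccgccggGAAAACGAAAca
Isg15 held 3 overlapping matches in the reading direction of the gene, which begin 78, 72 and 66 bases before the start site, and Ifit1 held 2 on the opposite strand, beginning 104 and 85 bases before it. In Ifitm3 and Eif2ak2 the matches lay just behind the start site, at bases 3 and 20 and at base 19.

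By a rule of size on FPKM + 1, the members were called beyond both controls at shares near those of all genes or below them. As 1 of 38 members is 2.63%, these counts do not set the members apart from all genes. In the Pld6 KO library 0 of 38 members lay more than 2-fold beyond both controls, higher (1.04% of all genes) or lower (5.41% of all genes), on FPKM + 1. In the Dnmt3L KO library 1 member, Usp18, was more than 2-fold above both controls (2.14% of all genes), and 1 member, Dhx58, was more than 2-fold below both (5.78% of all genes). The median log2 change of the members (mean of the controls as reference) came to 0.16 for Pld6 KO and 0.42 for Dnmt3L KO, beside 0 over all genes in each mutant, and -0.0530 and -0.0154 over the 14416 genes with a mean of at least 1 FPKM. At 5 members the controls differed from each other by more than 2-fold (14.8% of all genes in either direction).

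The added 1 FPKM keeps genes of low level from passing, and 14 members had a mean under 1 FPKM. Without it, and with every value raised to at least 3 fragments, 5 members were more than 2-fold above both controls in Pld6 KO (5.59% of the 17912 genes with 20 fragments in at least 1 library), namely Tmem173, Ifi44, Oas3, Mx1 and Rsad2, and 4 were below both (12.3%), namely Dhx58, Tlr3, Isg15 and Ifit1. In Dnmt3L KO, 10 members were above both controls on this scale (6.88%), namely Ddx58, Tlr7, Tlr9, Tmem173, Zbp1, Irf7, Oas2, Mx1, Rsad2 and Usp18, and 2 were below (13.7%), Dhx58 and Oasl1. The count of 10 is 26.3% of the members. Of any size, 25 members lay above both controls in Dnmt3L KO (29.1% of all genes) and 6 below (28.6%), while 18 lay above in Pld6 KO (26.4%) and 8 below (27.5%).

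**Figure D1:**
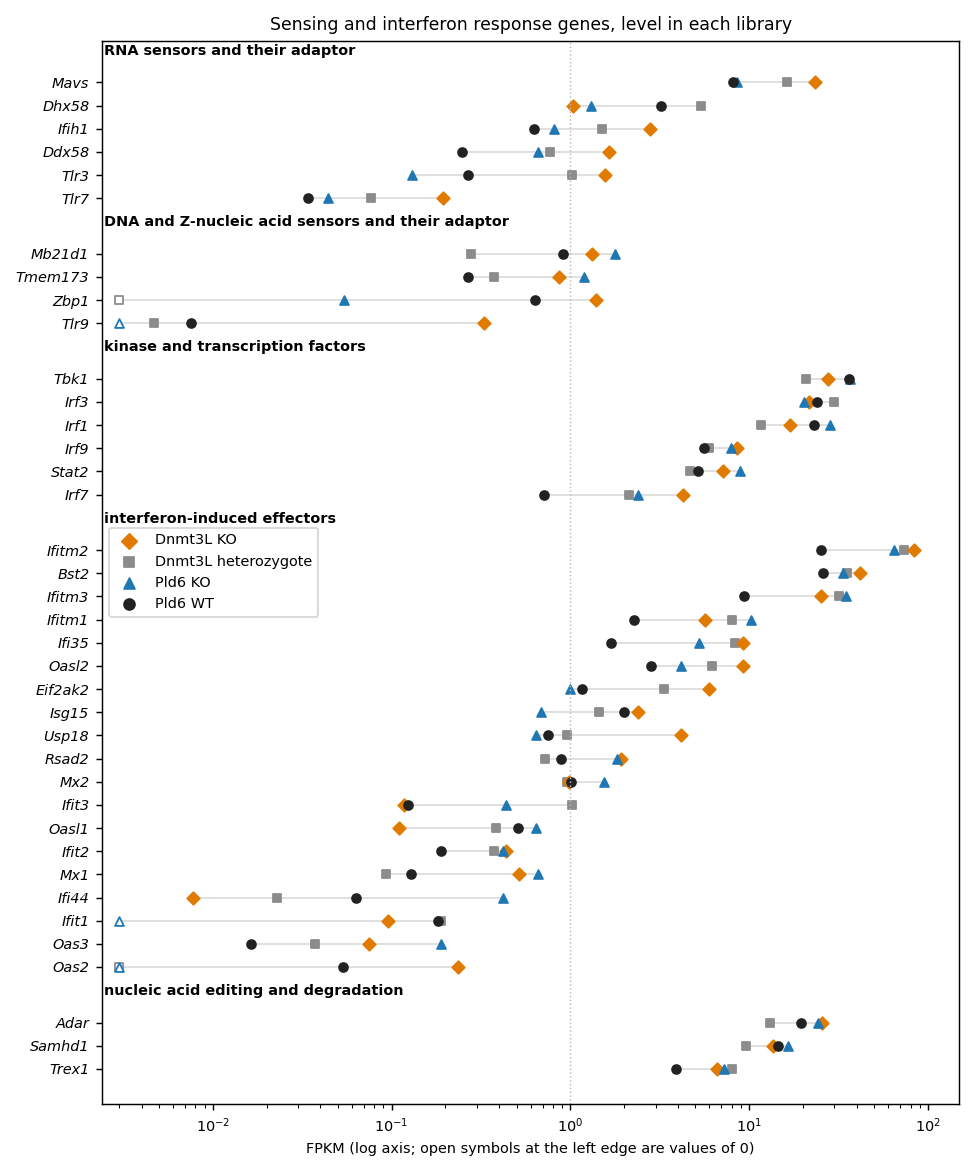
FPKM of each of the 38 members (rows, grouped by role and ordered by mean level) in each of the 4 libraries, on a log axis; 1 symbol is 1 library and grey lines join the lowest to the highest. The Dnmt3L KO library was the highest for 20 members and the Pld6 WT library for 0.

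**Figure D2:**
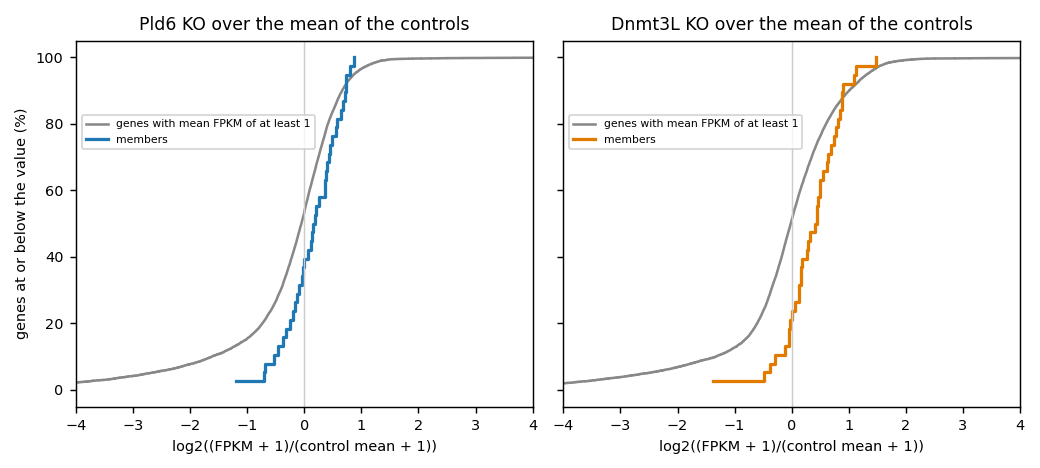
Share of genes (vertical axis, percent) at or below each log2 change (horizontal axis) for the 38 members and for the 14416 genes with mean FPKM of at least 1, in Pld6 KO (left) and Dnmt3L KO (right) against the mean of the controls. The members span -1.21 to 0.87 (Pld6 KO) and -1.38 to 1.47 (Dnmt3L KO).

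Of the RNA sensor genes, Ifih1 and Ddx58 were highest in the Dnmt3L KO library and lowest in the Pld6 WT library. Ifih1 encodes MDA5, the sensor of long double-stranded RNA, and lies on chromosome 2 (62595618 to 62646255, mm10). It was at 1.5 FPKM (504 fragments) in Dnmt3L Het, 2.80 FPKM (705) in Dnmt3L KO, with 0.805 FPKM (132) in Pld6 KO and 0.623 FPKM (135) in Pld6 WT. Both libraries of the Dnmt3L line were above both of the Pld6 line. Against its own control the Dnmt3L KO was 1.92-fold higher (1.71 to 2.15), where the range is a 95% exact binomial interval that covers counting error only, and Pld6 KO was 1.26-fold higher (0.980 to 1.61). Ddx58 encodes RIG-I, the sensor of RNA with 5′ triphosphate ends (chromosome 4, 40203777 to 40239825). It had the same order of libraries, with 0.773 FPKM in Dnmt3L Het and 1.64 FPKM in its KO, with 0.658 FPKM in Pld6 KO and 0.249 FPKM in Pld6 WT. Each mutant exceeded the control of its line, by 2.12-fold (1.8 to 2.51) in the Dnmt3L line and 2.65-fold (1.86 to 3.82) in the Pld6 line, and the controls differed from each other by 3.11-fold (2.27 to 4.33).

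Dhx58 was the 1 member more than 2-fold below both controls in both mutants when no pseudocount was added. It encodes LGP2, a relative of RIG-I and MDA5 that tunes their signalling (chromosome 11, 100694884 to 100704271). Its level was 5.37 FPKM (771 fragments) in Dnmt3L Het and 3.23 FPKM (291) in Pld6 WT, against 1.03 FPKM (108) in Dnmt3L KO and 1.30 FPKM (91) in Pld6 KO. The mutants did not overlap with the controls. The Dnmt3L KO was 5.21-fold below its own control (4.26 to 6.44) and Pld6 KO 2.49-fold (1.96 to 3.19). It was the member with the smallest adjusted p when both mutants were set against both controls in edgeR (adjusted p = 0.350), and also with line as a block (adjusted p = 0.106), and passed in neither fit. The spermatid and pachytene marker lists were lower in the same libraries, where the median of the 8 pachytene markers went from 45.9 and 32.4 FPKM in the controls to 1.69 FPKM in Dnmt3L KO and 2.28 FPKM in Pld6 KO, and their part in the level of Dhx58 was not tested. A noncoding gene, Gm38483, overlaps Dhx58 over 2646 bases.

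Among the other genes of RNA sensing, the endosomal receptor gene Tlr3 (chromosome 8, 45395665 to 45411075) was at 1.02 FPKM (273 fragments) in Dnmt3L Het, 1.56 FPKM (306) in Dnmt3L KO, with 0.130 FPKM (17) in Pld6 KO and 0.268 FPKM (45) in Pld6 WT. It was lowest in Pld6 KO, 2.06-fold below Pld6 WT (1.16 to 3.84), and 3.81-fold apart between the controls (2.77 to 5.34). Tlr7, the endosomal receptor of single-stranded RNA (chromosome X, 167303380 to 167330574), was near its limit of detection with 18 fragments in Dnmt3L Het, 33 in Dnmt3L KO, 5 in Pld6 KO and 5 in Pld6 WT. Mavs, the adaptor on the mitochondrial membrane, was the most abundant of the group, with 8.15 to 23.3 FPKM. The group as a whole had a median log2 change of -0.33 (Pld6 KO) and 0.72 (Dnmt3L KO) against the mean of the controls. Against the control of its own line alone the median was 0.0362 for Pld6 KO, of the opposite sign, and 0.42 for Dnmt3L KO.

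The genes of STING and cGAS, the main route of DNA sensing, were under 1 FPKM in both controls and lay above them in both mutants. Tmem173 encodes STING, the adaptor on the endoplasmic reticulum (chromosome 18, 35733678 to 35740554). It was at 0.374 FPKM (48 fragments) in Dnmt3L Het and 0.269 FPKM (23) in Pld6 WT, against 0.864 FPKM (83) in Dnmt3L KO and 1.19 FPKM (76) in Pld6 KO. Mutants and controls did not overlap, and the fold over the control of the same line was 2.37 (1.64 to 3.45) in the Dnmt3L line and 4.24 (2.63 to 7.09) in the Pld6 line, while the controls differed by 1.31-fold (0.781 to 2.25). Mb21d1 encodes cGAS, which makes the messenger that activates STING (chromosome 9, 78430518 to 78443237). Its values were 0.280 FPKM (69 fragments) in Dnmt3L Het, 1.33 FPKM (239) in Dnmt3L KO, with 1.78 FPKM (214) in Pld6 KO and 0.905 FPKM (140) in Pld6 WT. Again no mutant overlapped with a control. The Dnmt3L KO was 4.74-fold above its control (3.62 to 6.30) and Pld6 KO 1.96-fold (1.58 to 2.45), with 3.23-fold (2.41 to 4.38) between the controls. In edgeR, Tmem173 had an adjusted p of 0.735 and Mb21d1 one of 0.899 for both mutants together.

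The other sensors of this group were seen in few libraries. Zbp1, a sensor of Z-form nucleic acid that can start necroptosis (chromosome 2, 173206612 to 173218959), had 0 fragments in Dnmt3L Het, 38 in Dnmt3L KO (1.38 FPKM), 1 in Pld6 KO and 18 in Pld6 WT (0.636 FPKM). With the 0 set to 3 fragments the Dnmt3L KO was 17.3-fold above its own control, and the counting interval without this floor began at 13.4-fold. Above Pld6 WT the Dnmt3L KO was 1.81-fold (1.01 to 3.38). Tlr9, the endosomal receptor of unmethylated DNA (chromosome 9, 106222598 to 106226876), had 51 fragments in Dnmt3L KO (0.329 FPKM), 1 in each control and 0 in Pld6 KO. With so few fragments the ratios to the controls were 69.9 (12.0 to 2812) and 43.8 (7.52 to 1764). Tlr9 had the smallest edgeR p of the members in Dnmt3L KO, 0.0263 unadjusted and 0.423 adjusted.

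The kinase and transcription factor genes were detected in all libraries, and 0 of the 6 passed the 2-fold rule on FPKM + 1 in either mutant. Tbk1, the kinase downstream of MAVS and STING (chromosome 10, 121546455 to 121586794), was at 20.7 FPKM in Dnmt3L Het and 27.8 FPKM in its KO, with 36.6 FPKM in Pld6 KO and 36.2 FPKM in Pld6 WT. The Pld6 KO differed from its control by 1.01-fold (0.965 to 1.06). Irf3, the factor that TBK1 phosphorylates first (chromosome 7, 44997648 to 45002848), was at 29.9 FPKM and 23.9 FPKM in Dnmt3L Het and Pld6 WT, and at 21.7 FPKM in Dnmt3L KO and 20.4 FPKM in Pld6 KO. Both mutants were below both controls, by 1.37-fold (1.29 to 1.45) and 1.16-fold (1.08 to 1.25) within their lines.

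Irf7, which amplifies interferon production and is itself interferon-induced (chromosome 7, 141263183 to 141266499), was at 2.13 FPKM (224 fragments) in Dnmt3L Het, 4.26 FPKM (328) in Dnmt3L KO, with 2.40 FPKM (119) in Pld6 KO and 0.708 FPKM (47) in Pld6 WT. It was higher in each mutant than in its own control, by 2.01-fold (1.69 to 2.39) in the Dnmt3L line and 3.25-fold (2.30 to 4.66) in the Pld6 line, but the Pld6 KO differed from Dnmt3L Het by 1.09-fold (0.864 to 1.36). Stat2 and Irf9, whose products bind the ISRE together, were above both controls in both mutants, Stat2 by 1.71-fold (1.56 to 1.86) in the Pld6 line and 1.54-fold (1.43 to 1.66) in the Dnmt3L line. Irf9 was higher by 1.37-fold (1.22 to 1.55) and 1.44-fold (1.31 to 1.58). Part of Stat2 (753 bases) overlaps the gene Apof. Irf1 was 2.41-fold higher in Pld6 KO than in Dnmt3L Het (2.25 to 2.59) but 1.23-fold higher than in Pld6 WT (1.15 to 1.31).

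Of the interferon-induced effectors, Usp18 had the highest log2 change in the Dnmt3L KO library, 1.47. It encodes the protease that removes ISG15 from proteins and dampens signalling at the interferon receptor (chromosome 6, 121245906 to 121270917). Its level was 4.14 FPKM (308 fragments) in Dnmt3L KO, against 0.952 FPKM (97) in Dnmt3L Het, 0.751 FPKM (48) in Pld6 WT and 0.643 FPKM (32) in Pld6 KO. The Dnmt3L KO was alone above the other libraries, 4.35-fold over its own control (3.45 to 5.52) and 5.51-fold over Pld6 WT (4.06 to 7.64). In the Pld6 KO the gene was 1.17-fold below Pld6 WT (0.731 to 1.89 as the fold lower). The unadjusted edgeR p in Dnmt3L KO was 0.0431 and the adjusted p 0.536. A noncoding gene, Gm44148, overlaps Usp18 over 15743 bases.

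Isg15 and Ifit1 were not more than 2-fold above the controls in Dnmt3L KO, where Usp18 was. Without a pseudocount the effectors Oas2, Mx1 and Rsad2 were also more than 2-fold above both controls there, and Oasl1 was below both. Isg15 was, like Usp18, highest in Dnmt3L KO and lowest in Pld6 KO, while Ifit1 was lower in both mutants. Isg15, the ubiquitin-like protein that USP18 removes (chromosome 4, 156199424 to 156200818), was at 1.45 FPKM (52 fragments) in Dnmt3L Het, 2.40 FPKM (63) in Dnmt3L KO, with 0.683 FPKM (12) in Pld6 KO and 2.0 FPKM (45) in Pld6 WT. It was 1.66-fold above its control in Dnmt3L KO (1.13 to 2.44) and 2.92-fold below its control in Pld6 KO (1.52 to 6.06). Ifit1, an antiviral protein that binds foreign RNA ends (chromosome 19, 34640889 to 34650009), had 30 fragments in Dnmt3L Het, 18 in Pld6 WT, 11 in Dnmt3L KO and 0 in Pld6 KO. It was thus lower in both mutants, by 1.99-fold (0.970 to 4.40) in Dnmt3L KO. In Pld6 KO against Pld6 WT it was 4.67-fold lower with the 0 set to 3 fragments, and the counting interval without this floor began at 3.42-fold. Both genes hold more than 1 ISRE match in the stretches printed above. Ifit1 had the smallest adjusted edgeR p of the members in Pld6 KO, 0.688.

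The related gene Ifit3 (chromosome 19, 34583119 to 34588982) was highest in a control, with 119 fragments in Dnmt3L Het (1.02 FPKM), 10 in its KO (0.117 FPKM), and with 25 in Pld6 KO (0.439 FPKM) and 9 in Pld6 WT (0.123 FPKM). Against their own controls the mutants went opposite ways, 8.69-fold lower in the Dnmt3L line (4.56 to 18.6) and 3.57-fold higher in the Pld6 line (1.61 to 8.69). Ifit2 ranged from 0.190 to 0.439 FPKM. Reads of the Ifit genes, which arose by duplication, may be split between copies, and Ifit1bl1 overlaps the whole of Ifit1 (9121 bases) in the RefSeq annotation.

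A few effectors of low level lay above both controls in both mutants. Mx1 encodes a GTPase that blocks influenza virus and is disrupted in C57BL/6 mice (chromosome 16, 97447035 to 97462906). The animals were hybrids with MSM/Ms, and which allele gave the reads was not tested. Mx1 had 15 fragments (0.0926 FPKM) in Dnmt3L Het and 13 (0.128 FPKM) in Pld6 WT, against 63 (0.513 FPKM) in Dnmt3L KO and 52 (0.657 FPKM) in Pld6 KO. The controls differed by 1.38-fold, lower in Dnmt3L Het (0.605 to 3.11 as the fold lower), and the mutants were 5.75-fold (3.24 to 10.9) and 5.14-fold (2.76 to 10.3) above the controls of their lines. Mx1 had an unadjusted edgeR p of 0.0463 and an adjusted p of 0.505 for both mutants together. Rsad2, which encodes viperin, an inhibitor of viral replication, had values of 0.718 and 0.891 FPKM in Dnmt3L Het and Pld6 WT, and of 1.92 FPKM in Dnmt3L KO and 1.83 FPKM in Pld6 KO. Its folds within the lines were 2.67 (2.21 to 3.24) and 2.06 (1.64 to 2.58). These 2 genes, Tmem173, Mb21d1, Irf7, Irf9, Stat2, Ifit2, Oas3 and Adar made up the 10 members for which both mutants lay above both controls without overlap (11.5% of all genes), and for Dhx58, Irf3 and Ifit1 both lay below (17.9%).

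**Figure D3:**
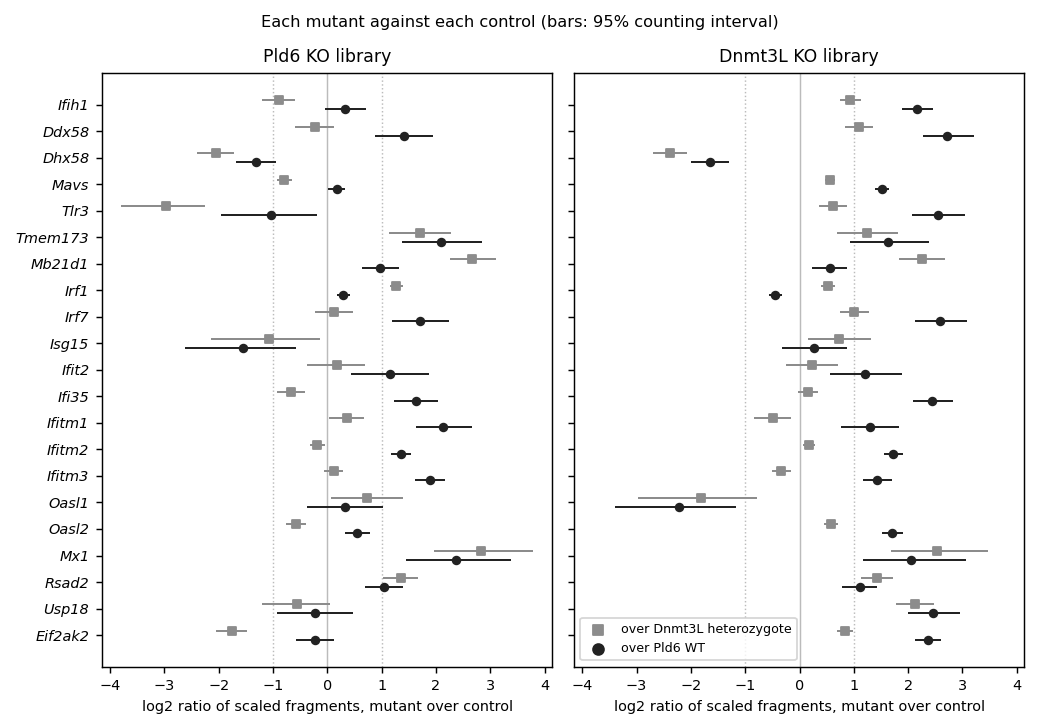
Log2 ratio of scaled fragments (horizontal axis) of Pld6 KO (left) and Dnmt3L KO (right) over Dnmt3L Het (squares) and over Pld6 WT (circles), for the 21 members with at least 10 fragments in every library and a ratio over 2-fold in at least 1 of the comparisons; bars are 95% counting intervals and dotted lines mark 2-fold. Mx1, Rsad2 and Tmem173 lie beyond the upper dotted line over both controls in both panels and Dhx58 beyond the lower one, while the Ifitm genes lie beyond the upper line over Pld6 WT alone.

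The 2′,5′-oligoadenylate synthase family, which answers double-stranded RNA, was scattered. Oas2 (chromosome 5, 120730333 to 120749886) had 41 fragments in Dnmt3L KO, 8 in Pld6 WT and 0 in Dnmt3L Het and Pld6 KO. With the 0 set to 3 fragments, Dnmt3L KO was 18.7-fold above its control, and the counting interval without this floor began at 14.5-fold. Oas3 (chromosome 5, 120753098 to 120777684) had 11 fragments in Dnmt3L Het, 16 in Dnmt3L KO, 27 in Pld6 KO and 3 in Pld6 WT. Oasl1, a relative that restrains translation of Irf7 (chromosome 5, 114923143 to 114937911), was lowest in Dnmt3L KO with 10 fragments (0.110 FPKM), against 48 in Dnmt3L Het, 39 in Pld6 KO and 40 in Pld6 WT. That is 3.50-fold below its own control (1.75 to 7.77). Oasl2 ranged from 2.84 to 9.27 FPKM, highest in Dnmt3L KO. Ifi44 (chromosome 3, 151730922 to 151749910) was seen mostly in Pld6 KO, with 36 fragments against 7 in Pld6 WT, 4 in Dnmt3L Het and 1 in Dnmt3L KO, and was 6.61-fold (2.90 to 17.6) above Pld6 WT.

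The genes of the interferon-induced transmembrane proteins, which block entry of viruses, lie together on chromosome 7, and each was lowest in the Pld6 WT library. Ifitm2 had the highest mean level of all members. Ifitm2 (140954837 to 140959686) was at 73.5 FPKM in Dnmt3L Het and 83.2 FPKM in its KO, with 64.7 FPKM in Pld6 KO and 25.2 FPKM in Pld6 WT. Ifitm3 (141009590 to 141010744) was at 32.0 FPKM, 25.3 FPKM, 34.7 FPKM and 9.37 FPKM in the same order, and Ifitm1 (140967429 to 140969827) at 8.03 FPKM, 5.70 FPKM, 10.3 FPKM and 2.28 FPKM. For all 3 genes the other libraries lay within 2-fold of each other. Markers of Leydig cells were also lowest in Pld6 WT, with a median of 1.39 FPKM against 17.6 FPKM in Pld6 KO and 37.6 and 28.5 FPKM in Dnmt3L Het and its KO. Those of peritubular and endothelial cells had medians of 2.80 FPKM in Pld6 WT, 10 FPKM in Pld6 KO, 8.02 FPKM in Dnmt3L Het and 4.20 FPKM in its KO, and the part of these cells in the Ifitm levels was not tested. Ifi35, an interferon-induced cytoplasmic protein (chromosome 11, 101448412 to 101458701), had 8.29 FPKM, 9.24 FPKM, 5.23 FPKM and 1.70 FPKM. These 4 genes were the members more than 2-fold higher in Pld6 KO than in Pld6 WT on FPKM + 1 (4.69% of all genes), and 0 were lower (6.46%). Their folds were 2.57 (2.28 to 2.89) for Ifitm2, 3.70 (3.10 to 4.43) for Ifitm3, 4.40 (3.13 to 6.27) for Ifitm1 and 3.08 (2.36 to 4.05) for Ifi35. Against Dnmt3L Het the Pld6 KO was at 1.08-fold for Ifitm3 (0.970 to 1.21), 1.28-fold for Ifitm1 (1.04 to 1.57) and 1.14-fold lower for Ifitm2 (1.05 to 1.23), and Ifi35 was 1.58-fold lower (1.35 to 1.87). Ifitm2 and Ifitm3 are near in sequence and reads may be split between them. Bst2, or tetherin, which holds virus particles at the cell surface (chromosome 8, 71534255 to 71537472), was at 25.8 to 41.9 FPKM.

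Eif2ak2 was among the members that separated the lines, as were Tlr3 and Ifih1. Tlr3 was at 1.02 and 1.56 FPKM in the Dnmt3L line and at 0.268 and 0.130 FPKM in the Pld6 line. The added 1 FPKM kept Tlr3 from passing the 2-fold rule below. Eif2ak2 encodes PKR, the kinase that halts translation on binding double-stranded RNA (chromosome 17, 78850504 to 78882572). Its level was 3.36 FPKM (900 fragments) in Dnmt3L Het and 5.99 FPKM (1171) in Dnmt3L KO, against 0.994 FPKM (130) in Pld6 KO and 1.17 FPKM (196) in Pld6 WT. It was the 1 member that was more than 2-fold higher on FPKM + 1 in both libraries of the Dnmt3L line than in both of the Pld6 line (4.5% of all genes), and 0 members were lower there by this rule (0.346%). Within the lines the Dnmt3L KO was 1.78-fold above its control (1.63 to 1.95) and Pld6 KO 1.17-fold below (0.936 to 1.48 as the fold lower). The Sertoli markers had the same split between the lines, and their part in this difference was not tested. With the Ifitm genes and Ifi35, Eif2ak2 made up the 5 members that differed more than 2-fold between the controls, all higher in Dnmt3L Het (11.1% of all genes) and 0 lower (3.77%).

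Genes that edit or degrade nucleic acid were expressed throughout. Adar encodes the adenosine deaminase that marks double-stranded RNA as self (13.0 to 25.6 FPKM). It was above both controls in both mutants, 1.96-fold over its own control in Dnmt3L KO (1.89 to 2.04) and 1.24-fold in Pld6 KO (1.19 to 1.29), with 1.5-fold (1.44 to 1.57) between the controls. Samhd1, which limits the nucleotides used in reverse transcription, ranged from 9.60 to 16.6 FPKM, and Trex1, the exonuclease that clears cytoplasmic DNA, from 3.88 to 7.99 FPKM. Trex1 was lowest in Pld6 WT.

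Set against the control of its own line alone, the Dnmt3L KO had 2 members more than 2-fold higher on FPKM + 1, Zbp1 and Usp18 (3% of all genes), and 1 lower, Dhx58 (8.22%). Against the Pld6 WT, the control of the other line, 12 members were higher in Dnmt3L KO (12.1% of all genes) and 1, Dhx58, was lower (8.75%). The share of members was 31.6%, and 11 of the 12, all but Usp18, were less than 2-fold above Dnmt3L Het on this scale. Pld6 KO, set against Dnmt3L Het, had Mb21d1 and Irf1 higher (5.55%) and Dhx58 and Eif2ak2 lower (13.4%).

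Models fitted across all genes called none of the members. In edgeR's quasi-likelihood test on rounded fragments with each mutant against the 2 controls, 0 of 38 members passed an adjusted p of 0.05 in Pld6 KO or in Dnmt3L KO (0% of 18657 genes tested, in each direction). With both mutants in 1 group, 0 of 35 members passed (0% of 17686). At an unadjusted p under 0.05 there were 0 members in Pld6 KO (0.547% of genes higher, 7.41% lower). In Dnmt3L KO, Tlr9 and Usp18 were higher (1.09%) and 0 members lower (7.72%). For both mutants together Mx1 was higher (0.724%) and Dhx58 lower (8.75%). DESeq2 called 0 members in any of these comparisons, although it called 0.0808% of genes higher and 5.11% lower in Pld6 KO, 0.0896% and 4.82% for Dnmt3L KO, and 0.195% and 6.45% for both together. Its smallest adjusted p among members was 0.0592, for Dhx58 in both mutants. With line as a block, so that each mutant was paired with the control of its own line, edgeR called 0 of 35 members for both mutants together, against 0.741% of genes higher and 5.98% lower. The edgeR fits had 1 residual degree of freedom for single mutants and for the blocked fit, and 2 for both mutants without a block.

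The other genes of the pathway were examined from lists written by function, 112 of them in the table. Transcripts of the interferons themselves were at or near 0: of 21 interferon ligand genes 16 had 0 fragments in all 4 libraries, Ifnb1 had at most 1 fragment, and the most were 20 fragments of Ifnk in Dnmt3L KO. Receptors were present, with Ifnar1 at 12.8 to 20.8 FPKM and Ifnar2 at 2.61 FPKM in Pld6 WT, 5.16 FPKM in Pld6 KO, 12.6 FPKM in Dnmt3L Het and 24 FPKM in Dnmt3L KO. Of the 12 receptor and JAK-STAT genes, Socs3, a feedback inhibitor, was more than 2-fold above both controls in Pld6 KO (12.4 FPKM against 4.26 and 4.77 FPKM).

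In the other lists the Dnmt3L KO had more genes above both controls than the Pld6 KO. Over all 112 genes, 7 were higher in Dnmt3L KO (2.14% of all genes) and 2 in Pld6 KO (1.04%). In each mutant 1 gene was lower (5.78% of all genes in Dnmt3L KO and 5.41% in Pld6 KO). Of 20 adaptor and signalling genes 3 were higher in Dnmt3L KO and 0 in Pld6 KO. They were Trim25, a ubiquitin ligase that activates RIG-I (14.4 FPKM against 6.11 and 5.38 FPKM), Nfkb1, a subunit of NF-κB (9.46 FPKM against 4.19 and 2.56 FPKM), and Irf2, an antagonist of IRF1 (8.85 FPKM against 3.8 and 1.69 FPKM). Among 37 other interferon-induced genes, the conjugating enzyme of ISG15, Ube2l6, reached 18.7 FPKM in Dnmt3L KO against 5.04 FPKM in Dnmt3L Het and 0.850 FPKM in Pld6 WT. Xaf1 was at 4.14 FPKM against 1.31 and 0.328 FPKM. Isg20 was lower, with 0 fragments in Dnmt3L KO against 346 and 149 in the controls. In Pld6 KO the chemokine gene Cxcl10 was higher, with 88 fragments against 2 in Dnmt3L Het and 37 in Pld6 WT. The 8 genes of other nucleic acid restriction had 1 lower gene, Rnaseh2a, in Pld6 KO.

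Markers of immune cells differed between the libraries as well. The median of 16 macrophage markers was 7.11 FPKM in Dnmt3L KO, 6.19 FPKM in Dnmt3L Het, 3.49 FPKM in Pld6 KO and 1.75 FPKM in Pld6 WT, with sums of 191, 160, 77 and 43.5 FPKM. The median of the members had the same order of libraries, at 2.60, 1.47, 1.42 and 0.956 FPKM, as did the Sertoli markers. The sums of the members ran in another order, with 358 FPKM in Dnmt3L KO and 328 FPKM in Pld6 KO, then 304 FPKM in Dnmt3L Het and 221 FPKM in Pld6 WT. The 24 members with a mean of at least 1 FPKM had this second order in their medians too, with 7.89, 7.56, 7.10 and 3.56 FPKM. None of the 16 markers was at 0 in any library, and Csf1r, the receptor that macrophages need to survive, had 8.12 FPKM (Dnmt3L KO), 5.88 FPKM (Pld6 KO), 2.72 FPKM (Dnmt3L Het) and 1.47 FPKM (Pld6 WT). Of the 16, 2 genes, Csf1r and Lyz2, were more than 2-fold above both controls in Dnmt3L KO (2.14% of all genes) and 15 were above both by any size (29.1%). In Pld6 KO 8 were above both by any size (26.4% of all genes) and 2 below (27.5%). Aif1 was more than 2-fold below both controls in both mutants, with 58.5 FPKM in Dnmt3L Het and 10.2 FPKM in Pld6 WT against 3.98 FPKM in Dnmt3L KO and 0.563 FPKM in Pld6 KO. This gene alone gave 58.5 of the 160 FPKM summed in Dnmt3L Het, against 3.98 of the 191 FPKM in its KO. The 12 lymphocyte markers summed to 12.2 FPKM in Dnmt3L Het and 7.65 FPKM in its KO, with 19.2 FPKM in Pld6 KO and 10.3 FPKM in Pld6 WT. Of these, Cd79a and Cd79b, parts of the B cell receptor, were more than 2-fold above both controls in Pld6 KO (1.04% of all genes), and 0 were below (5.41%). Cd79a had 281 fragments there against 40 and 34 in the controls, and Cd79b 111 against 0 and 1. Others were lower there, such as Cd3e, at 3.04 FPKM against 7.59 FPKM in Dnmt3L Het and 6.89 FPKM in Pld6 WT. By any size 6 of the 12 lay above both controls in Pld6 KO (26.4%) and 3 below (27.5%). In Dnmt3L KO, Cd2 was more than 2-fold above both controls (2.14%), and by any size 3 lay above (29.1%) and 4 below (28.6%). The part of immune cells in the levels of the members was not tested.

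**Figure D4:**
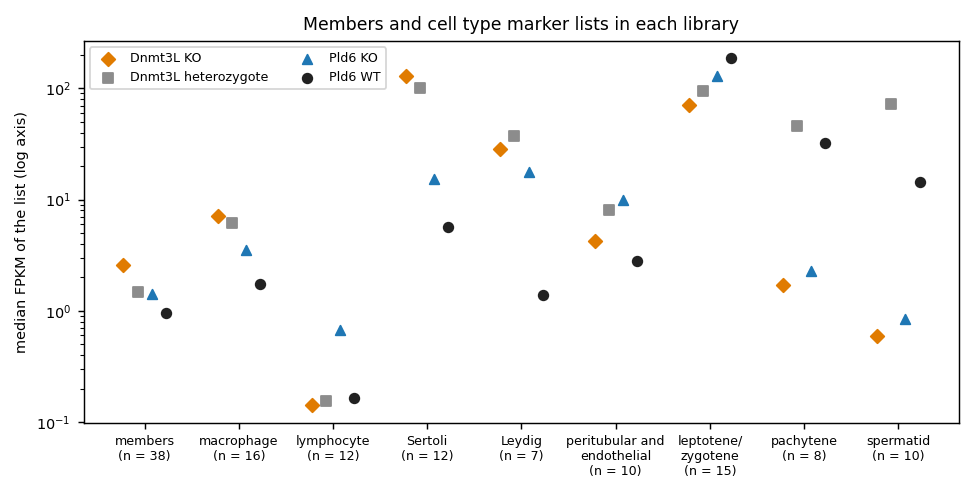
Median FPKM (log axis) of the 38 members and of 8 lists of cell type markers in each of the 4 libraries; n is the number of genes of a list. The medians of the macrophage and Sertoli markers share their order of libraries. The members have this order with Dnmt3L Het and Pld6 KO near a tie (1.47 and 1.42 FPKM), and members with a mean of at least 1 FPKM have another. Pachytene and spermatid markers are low in both mutants.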

How the data were processed

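Poly(A)+ RNA was measured in 4 libraries (1 each of Pld6 KO, Pld6 WT, Dnmt3L KO and Dnmt3L heterozygote). The authors used TopHat2 for alignment and Cuffdiff for RefSeq gene levels, whose versions were not given in the sources used here, and the submitters' processing notes name the build mm10. The deposited table gives an estimated count of fragments per gene, 97.3% to 97.4% of them whole numbers in a library, and FPKM as the authors' tool scaled it. The authors' tool marked 31 values of 28 genes as failed, none of them in a member. Members and lists were chosen with earlier results of these data known.

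A gene was called higher or lower when FPKM + 1 in a mutant lay more than 2-fold beyond both controls, and changes are log2((FPKM + 1)/(mean of controls + 1)). This scale understates changes of low genes. Folds were ratios of fragments after the authors' library scaling, with 95% exact (Clopper-Pearson) binomial intervals that cover counting error only. A fold against a count of 0 used a floor of 3 fragments per library. Counts were rounded and tested with edgeR 4.0.16 (quasi-likelihood, TMM, filterByExpr, Benjamini-Hochberg at 0.05), with 1 residual degree of freedom for single mutants and 2 for both together, and with DESeq2 1.42.0 and a fit with line as a block (1 residual degree of freedom) as alternatives. The edgeR script was tested on simulated data. As only the controls (or libraries of unlike genotype) give the spread, p-values measure that spread alone. Values in full were given for members called in either mutant, for those over 4-fold apart between any 2 libraries with at least 20 fragments in 1, and for the 5 of highest mean, and for the pathway lists at most 3 called genes each; other members named with folds (Mavs, Irf1, Irf9, Stat2, Rsad2, Adar, Isg15) and Ifnar1, Ifnar2, Ifnb1 and Ifnk were added after the values were seen. Some genes of the pathway lists are not reported here. Whether reads of the MSM/Ms allele were lost in alignment was not tested. Positions and promoter windows are from RefSeq, GRCm38.p6, which shares the coordinates of mm10, matched by symbol.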

Additional observations from a re-analysis of the deposited data

Results flagged for a closer look

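Each mutant was set against the control of its own line, without a pseudocount and with every value raised to at least 3 fragments, and 3 members moved more than 2-fold in opposite directions in the 2 lines. No test of these differences was made, as each genotype had 1 library. For Zbp1 the log2 change was -1.96 in the Pld6 line and 4.12 in the Dnmt3L line, a difference of -6.08. For Oas2 it was -1.05 and 4.23, a difference of -5.28. For Ifit3 it was 1.84 and -3.12, a difference of 4.95. Zbp1 and Oas2 rest on 18 and 8 fragments in the Pld6 WT and on 0 in the Dnmt3L heterozygote, so their changes are set by the floor. No group has the 4 libraries that a search for outlying libraries needs.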

How the results depend on the processing

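Of 75 alternative values 42 kept the main value and 33 did not, and none turned a median's direction. Counts were kept when within 1.5 times. Medians were kept when they moved by less than 0.0689 log2, the SD of the members' median between the controls. The count of members beyond both controls depended on the pseudocount. In Pld6 KO the counts of 0 higher and 0 lower became 4 and 2 with a pseudocount of 0.1 FPKM, 5 and 4 with no pseudocount and each value raised to at least 3 fragments, and 2 and 1 at a 1.5-fold threshold. In Dnmt3L KO the counts of 1 and 1 became 7 and 2, 10 and 2, and 5 and 1 in the same settings, and 0 and 0 at a 3-fold threshold. Leaving out 1 control gave 2 to 4 higher and 0 to 2 lower members in Pld6 KO, and 2 to 12 higher and 1 to 1 lower in Dnmt3L KO. Without the Dnmt3L heterozygote (control replicate 1) Pld6 KO had 4 higher members and Dnmt3L KO 12, and without the Pld6 WT (control replicate 2) 2 and 2, with 2 lower in Pld6 KO. Against the control of the own line alone without a pseudocount, a setting chosen after seeing the data, Pld6 KO had 13 higher and 6 lower members (15.6% and 14.4% of all genes with 20 fragments in 1 library) and Dnmt3L KO 11 and 3 (11.7% and 18%).

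The median log2 change in Pld6 KO, 0.16, was 0.34 with a pseudocount of 0.1 FPKM, 0.38 with no pseudocount, 0.36 over members with mean FPKM of at least 1, and 0.0242 to 0.29 without 1 control (0.0242 without the Pld6 WT). In Dnmt3L KO, 0.42 became 0.61 and 0.70 with the smaller and with no pseudocount. The members more than 2-fold apart between the controls, 5, were 14 and 18 in these settings, 2 at 3-fold and 16 at 1.5-fold. Scaling with TMM or DESeq2 size factors moved no count of calls in the mutants. All 14 alternatives to the edgeR fits called 0 members. Over all genes edgeR called 0 in each comparison, but 437 for Pld6 KO, 429 for Dnmt3L KO and 377 for both mutants with no filter on low counts, and 1189 for both mutants with line as a block, a paired fit chosen after seeing the data, in which 0 members were called. The smallest adjusted p for both mutants together ranged from 0.0592 (DESeq2, Dhx58) to 0.717 (without control replicate 1), and Dhx58 was at an unadjusted p over 0.05 in 3 of the 4 fits without 1 library (all but that without Pld6 WT). Mx1 was over it in all 4, with no filter and with the block. Depth limits the low members, of which 14 had a mean under 1 FPKM. The cause of the other changes was not tested.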
